A study of Manihot esculenta with 4 samples.

Results

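Xinxuan048-high genes are 76 genes of cassava leaf whose transcript level was higher in the cultivar Xinxuan048 than in the cultivar KU50. On the log2(FPKM + 1) scale explained below, it was at least 2-fold higher both in normally kept and in drought-stressed plants. On that scale it also moved by less than 2-fold with drought in either cultivar, though in plain FPKM some of these genes moved further. The 76 genes were chosen from 27146 genes in the deposited files by the measured values themselves. A gene had to lie on a numbered chromosome, span at least 500 bases from start to end of its locus, and average at least 1 and less than 300 FPKM over the 4 libraries. FPKM are fragment counts divided by transcript length and by library size, so levels can be compared between genes of different length. Inside these limits stood 18602 genes, and the 76 members are 0.409% of them. All ratios are on the scale of log2(FPKM + 1), on which a 2-fold difference is 1 and differences of low genes are understated.

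Cassava, Manihot esculenta, is grown in the tropics for its starchy roots, and the libraries were made from leaf total RNA. KU50 and Xinxuan048 each gave 1 library from plants under normal conditions, labelled control, and 1 from plants under drought, so every group held 1 library. The labels name no transgene or mutation, and give neither plant age nor the duration of drought nor the number of plants pooled. The series is titled as a study of how the cassava leaf responds to drought, and the contrast described here is the part of the cultivar difference that was present with and without it. Since 1 library stands for each group, a difference between cultivars in these values cannot be told apart from a difference between libraries, and no value has a replicate check. The cultivar ratios and the drought ratios of the members were used to choose them, so they are given as a description and no test was run on them.

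Cassava is propagated by stem cuttings, so a cultivar is kept as a clone with its own fixed set of alleles. Plants of different genotype are known to differ in the transcript level of some genes in every condition, and in that of others after a stress. A bulk leaf library holds mesophyll, epidermis, guard cells and vascular tissue together, and fewer cells of a type cannot be told apart from less RNA per cell. The files give each gene a MANES locus tag and a position, with no name or description. None of the 27146 tags was found in a table of 34312 RefSeq cassava genes (0 matches), so the functions of the members, markers of leaf cell types and gene lists were not examined. Sequences of the members were not used here.

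The libraries listed between 24405 and 25336 genes, with FPKM totals of 611226 to 636034. The number of fragments behind them is unknown, so no counting interval can be given. Where a library's file leaves a gene out, it is called unlisted and its level set to 0 FPKM. Over all 18602 genes inside the limits, the median log2 ratio of Xinxuan048 to KU50 was -0.13 in control and -0.08 in drought as deposited, and 0.02 and 0.03 with TMM scaling, which turns its sign. The median log2 ratio of drought to control was 0.31 in KU50 and 0.37 in Xinxuan048.

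Without drought, 392 genes stood at least 2-fold higher in Xinxuan048, 2.11% of the genes inside the limits. In drought-stressed leaves 471 genes were, 2.53%. The lists shared 129 genes, 0.693% of the genes inside the limits. These 129 genes are 32.9% of the control list and 27.4% of the drought list. Of the 129, 53 moved by at least 2-fold with drought in at least 1 cultivar and 76 did not, and the 76 are the members. A drought ratio inside that limit was common, held by 78.2% of all genes inside the other limits.

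**Figure D1:**
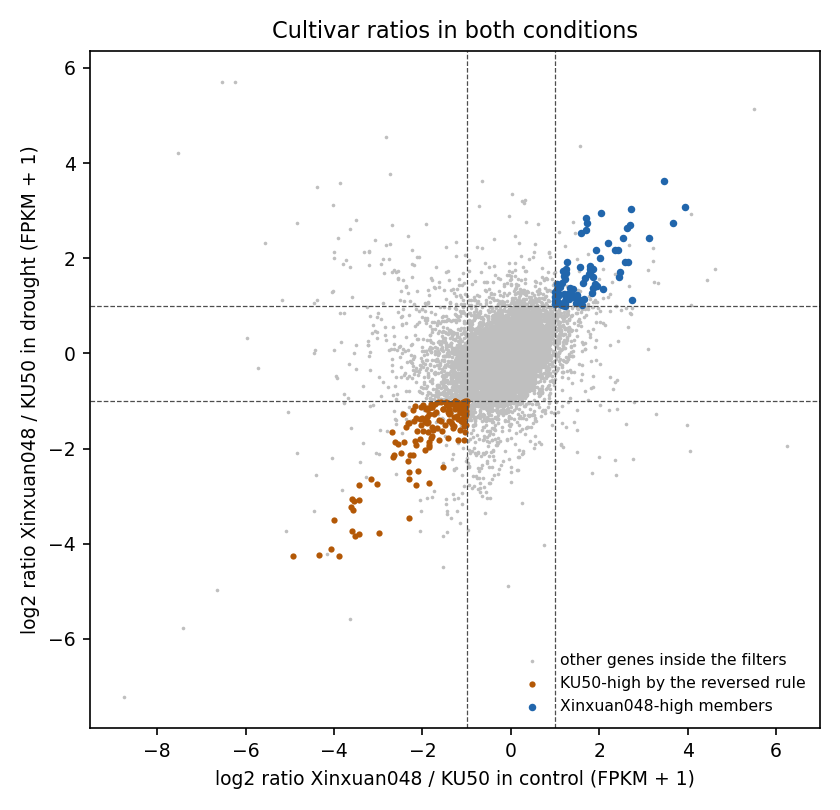
Log2 ratio of Xinxuan048 to KU50 on the FPKM + 1 scale, in control on the horizontal axis and in drought on the vertical axis, for each of the 18602 genes inside the limits. The 76 members (blue) fill the upper right corner beyond the dashed lines at 1, the 157 genes chosen by the reversed rule (orange) fill the lower left, and grey genes in these corners moved by at least 2-fold with drought.

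The median log2 cultivar ratio of the members was 1.58 in control and 1.47 in drought. Over the 68 members listed in all 4 libraries the medians were 1.46 and 1.41. The rule sets the lower end of both ranges, and the highest values among these 68 were 3.46 and 3.61. Taken relative to the median of all genes inside the limits, the members stood 1.72 higher in control and 1.55 higher in drought. Many members lay close to the limit: 30 of 76 had ratios below 1.5 in both conditions. At least 2 in both was reached by 13 members and by 0.0914% of all genes inside the limits. At least 3 in both was reached by 2 members, beside 0.0161% of all genes inside the limits. Among the same 68 members, the FPKM of Xinxuan048 were a median of 3.96 times those of KU50 in control and 3.54 times in drought. For 9 of the 68 the FPKM were at least 10 times higher in control, and for 9 in drought.

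The cultivars did not overlap in any member, in that both Xinxuan048 values lay above both KU50 values in 76 of 76. This order follows wholly from the rule, so it is no finding about the members. Of all genes inside the limits, 8.29% show it. In 62 members even the lower Xinxuan048 value was at least 2 times the higher KU50 value, an order found in 0.64% of all genes inside the limits. This measure reuses the values of the rule, and the 62 members are part of that share. In the other 14 this crosswise gap was smaller, and its lowest value was 1.17 times.

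The edge of the rule ran through genes of moderate level. MANES_15G128200, just inside it, reached 91.8 FPKM without and 52.3 with drought in Xinxuan048, against 38.4 and 25.6 in KU50, with log2 cultivar ratios of 1.24 and 1.002. MANES_13G154900, also just inside, had 34.0 and 33.0 FPKM against 16.4 and 12.9, with ratios of 1.01 and 1.29. Just outside stood MANES_02G046600, with 19.1 and 24.8 FPKM in Xinxuan048 against 9.04 and 10.1, and a control ratio of 0.998. MANES_16G070900 missed by its drought ratio of 0.995, with 25.4 and 12.2 FPKM in Xinxuan048 against 10.4 and 5.63. The ratios of these 4 genes run on across the limit without a gap.

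The members were of low to moderate abundance. Their mean FPKM over the 4 libraries had a median of 5.81 and ran from 1.01 to 237, against a median of 10.3 for all genes inside the limits. Of the 76, 16 averaged below 3 FPKM, 39 between 3 and 10, 15 between 10 and 30, and 6 at least 30. By library, the median over members was 8.68 FPKM for Xinxuan048 without drought and 9.04 with it. The KU50 medians were 1.77 and 1.999 FPKM. All genes inside the limits had medians of 8.13 and 11.04 FPKM in Xinxuan048 and of 9.32 and 11.9 for KU50, again control first. By these medians the members stood near the typical gene in Xinxuan048 and well below it in KU50, a placement shaped by the rule. Genes chosen by the reversed rule, with the cultivars exchanged, had medians of 7.17 and 8.01 FPKM in KU50. Their Xinxuan048 medians were 0.788 and 1.32 FPKM.

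**Figure D2:**
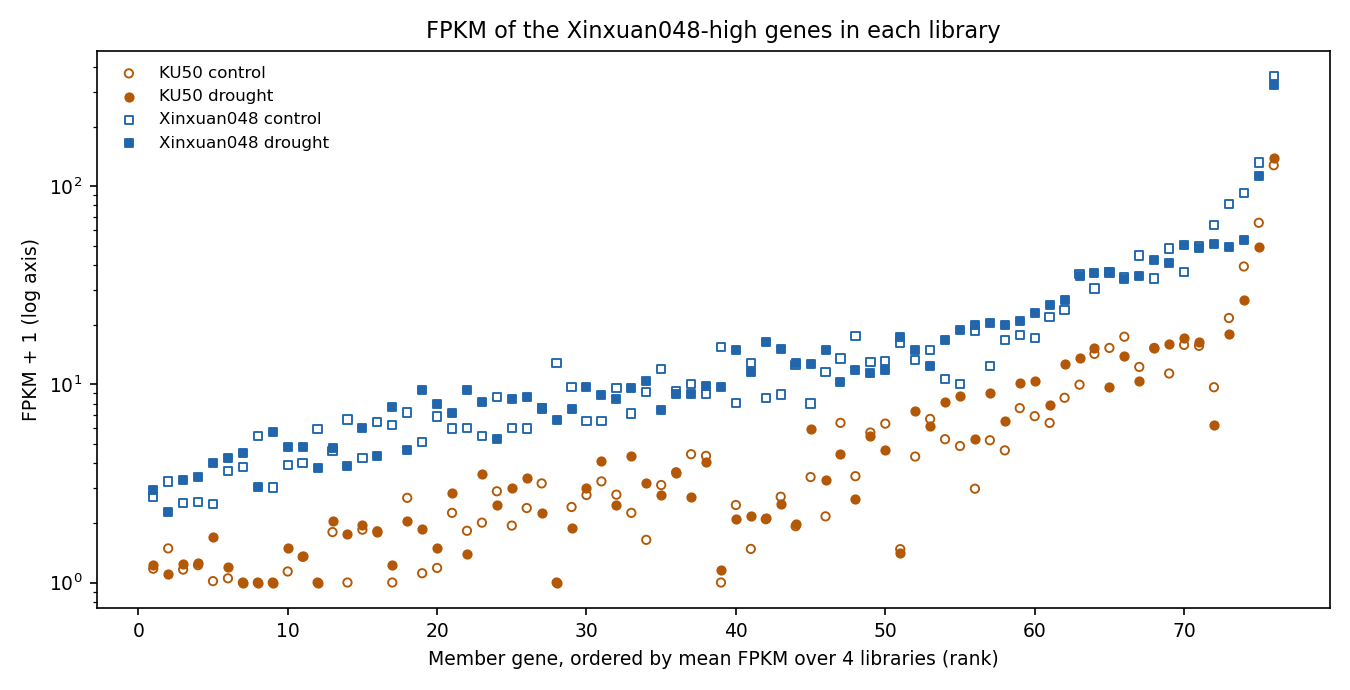
FPKM + 1 on a log axis for each of the 76 members, ordered by mean FPKM, with KU50 as orange circles, Xinxuan048 as blue squares, control open and drought filled. The blue squares lie above the orange circles for every member, as the rule requires, and the mean level of members runs from 1.01 to 237 FPKM.

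Several members were close to silent in KU50. In 23 of the 76, both KU50 values were below 1 FPKM, where 0.462% of all genes inside the limits had both KU50 values that low. These 23 passed the limit on mean FPKM through their Xinxuan048 values, so their difference was required by the choice. Of the 157 genes chosen by the reversed rule, 62, or 39.5%, were below 1 FPKM in both Xinxuan048 libraries, and 9 were unlisted in both. In 5 members the gene was unlisted in both KU50 libraries, as it was for 0.0484% of all genes inside the limits. In 3 more it was unlisted in KU50 control and listed in KU50 drought, beside 0.145% of all genes inside the limits. Every member was listed in both Xinxuan048 libraries. At least 5 FPKM in both Xinxuan048 libraries with less than 0.5 in both KU50 libraries was reached by 5 members. The share over all genes inside the limits was 0.0269%. These limits were set after the values were seen and reuse the contrast of the rule.

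Among members listed in all 4 libraries, MANES_09G025600 had the highest mean cultivar ratio on the scale used. This gene, on chromosome 9 from 3821457 to 3823476, reached 15.2 FPKM without and 16.3 with drought in Xinxuan048, whereas KU50 had 0.473 and 0.415. Both conditions gave nearly the same contrast, with log2 cultivar ratios of 3.46 and 3.61, and drought moved it by no more than 0.09 in either cultivar. MANES_10G022800, on chromosome 10 from 1763062 to 1764069, was unlisted without drought and at 0.154 FPKM with drought in KU50. Xinxuan048 had 14.4 FPKM without and 8.72 with drought, so its level in the 2 conditions differed more than that of MANES_09G025600. MANES_16G066600, on chromosome 16 from 21278051 to 21279522, was unlisted in both KU50 libraries while Xinxuan048 had 11.8 FPKM without and 5.64 with drought. Its drought ratio in Xinxuan048, -0.95, was the lowest of the members and near the limit of the rule.

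Other genes near silent in KU50 had lower levels in Xinxuan048 control. MANES_01G159800, on chromosome 1, and MANES_11G017600, on chromosome 11, are named because they complete the 5 members under the limits set after the values were seen. MANES_01G159800 reached 5.87 and 6.99 FPKM in Xinxuan048, control first, against 0.185 and 0.491 for KU50. MANES_11G017600 reached 5.24 and 6.65 FPKM in Xinxuan048, and KU50 listed it with drought alone, at 0.229 FPKM. Both cultivars had their higher value in drought for each of these genes. MANES_06G001500, which has the shortest locus among the members, 513 bases on chromosome 6, was unlisted in both KU50 libraries and had 4.97 and 2.78 FPKM in Xinxuan048. MANES_10G093300 was also unlisted in KU50 and had 4.47 and 2.04 FPKM in Xinxuan048. MANES_11G018200, unlisted in KU50 too, ran the other way, with 2.01 FPKM without and 4.77 with drought in Xinxuan048. Among the members absent from the KU50 lists, Xinxuan048 thus held some genes with more and some with less transcript in the drought library.

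The most abundant members were well expressed in both cultivars. MANES_08G004100, on chromosome 8 from 380385 to 381157, was the most abundant member. Xinxuan048 had 359 FPKM without and 323 with drought, against 127 and 138 for KU50, with log2 cultivar ratios of 1.495 and 1.22. MANES_03G131400, on chromosome 3 from 22763262 to 22765930, followed with 131 and 111 FPKM against 64.4 and 48.6, and ratios of 1.01 and 1.18. In both genes the cultivars were separate and the conditions close together. At the lower end, MANES_01G135700 had 1.71 and 1.92 FPKM in Xinxuan048 against 0.174 and 0.224 for KU50. At that level all 4 values are near the lower limit on the mean.

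As deposited, the members' drought ratios, which the rule limits, were lower than those of the typical gene. Their median log2 ratio of drought to control was 0.06 in KU50 and 0.15 in Xinxuan048. Over the 14541 genes that meet the same limit on the drought ratio, whatever their cultivar ratio, the medians were 0.26 and 0.32. In KU50, 43 members were higher in drought, or 56.6% beside 71.4% of all genes inside the limits, 28 were lower and 5 were unlisted in both libraries. In Xinxuan048, 46 members were higher, or 60.5% beside 76.8%, and 30 were lower. Both cultivars had the higher value in drought at 36 of 76 members, or 47.4%, beside a background of 63.5% of all genes inside the limits. Both had the lower value in drought at 20 members, or 26.3%, beside 15.1%. The 157 genes chosen by the reversed rule lay close to the members here, with median drought ratios of 0.06 in KU50 and 0.24 in Xinxuan048. Among those genes 45.9% were higher in drought in both cultivars and 21% lower in both. These directions hold for FPKM as deposited. With TMM scaling, which centres the ratios of all genes, the 76 members' medians were -0.02 for KU50 and -0.22 for Xinxuan048. All genes inside the limits then had -0.0004 and 0.02. With upper-quartile scaling the members had -0.01 and -0.13, beside 0.06 and 0.09. In KU50 the members' gap to all genes inside the limits was thus -0.25 as deposited, -0.02 with TMM and -0.07 with upper-quartile scaling. In Xinxuan048 it was -0.23, -0.24 and -0.23.

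**Figure D3:**
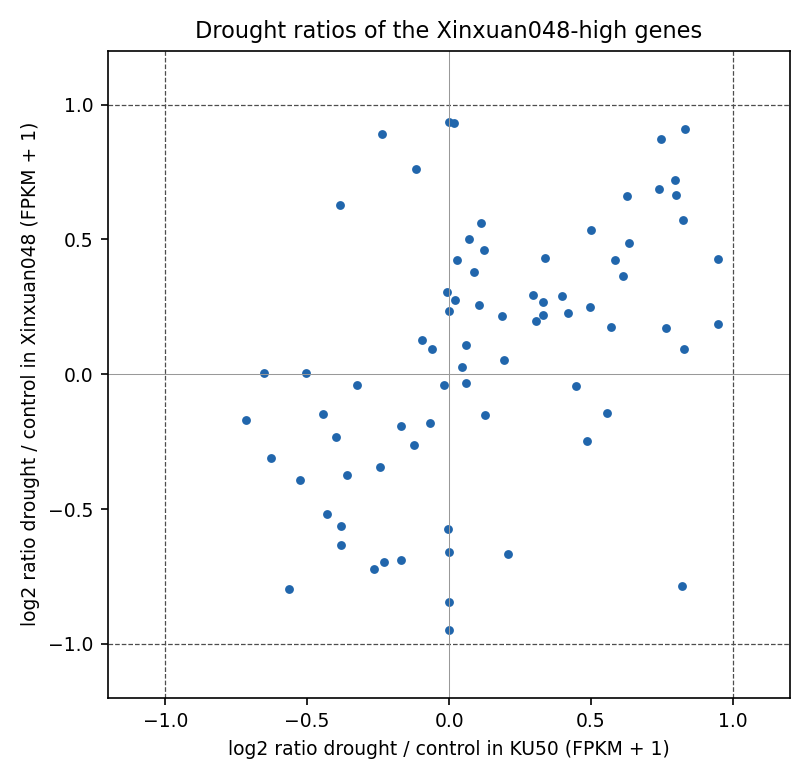
Log2 ratio of drought to control on the FPKM + 1 scale for the 76 members, in KU50 on the horizontal axis and in Xinxuan048 on the vertical axis; dashed lines mark the limit of 1. Points lie in all 4 quadrants, with 36 higher in drought in both cultivars and 20 lower in both, and 5 members unlisted in KU50 stand on the vertical line at 0.

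Members near the drought limit show how wide the term "regardless of drought" is here. In KU50 the highest drought ratio was that of MANES_17G119000, at a log2 value of 0.95, from 1.25 FPKM without to 3.34 with drought. Its Xinxuan048 values were 6.13 and 8.59 FPKM. MANES_01G132900 went from 0.642 to 2.16 FPKM in KU50, against 8.15 and 9.41 for Xinxuan048. In plain FPKM both genes rose by more than 2-fold in KU50, which is less than 2-fold on the FPKM + 1 scale. In both genes the higher drought value in KU50 narrowed the cultivar gap without closing it. The lowest drought ratio in KU50, -0.72, was that of MANES_01G194100, with 3.44 and 1.70 FPKM, against 9.03 and 7.93 in Xinxuan048. In Xinxuan048, MANES_10G025300 stood at 7.54 FPKM without and 15.3 with drought, a drought ratio of 0.93, while KU50 had 1.09 and 1.11.

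The cultivar ratio itself differed between conditions by at most 0.25 on the log2 scale in 38 of 76 members and by at most 0.5 in 55. These are 50% and 72.4% of the members, where genes under the same limit on the drought ratio gave 51.8% and 80.9% and all genes inside the other limits 44.6% and 71.9%. The ratio was higher in control at 45 members, or 59.2%, beside 44% of all genes inside the limits, and higher in drought at 31. The 44% is no like background, because where KU50 is the higher cultivar a higher ratio means a narrower gap. Among the 157 genes chosen by the reversed rule, the ratio was higher in drought at 64.3%. The cultivar gap was thus wider in control for most genes of both chosen sets, and these shares were not tested. In 3 members, or 3.95%, the conditions differed by more than 1, beside 2.53% of genes under the same drought limit and 8.6% of all genes inside the other limits. MANES_13G089800 had 7.07 and 14.0 FPKM in Xinxuan048 against 1.46 and 1.09 for KU50, control first, so its log2 cultivar ratio was 1.71 in control and 2.84 in drought. MANES_16G018400 had 5.03 and 8.32 FPKM against 0.824 and 0.396, with ratios of 1.72 and 2.74. In both genes the Xinxuan048 value was higher, and the KU50 value lower, in drought. MANES_10G139300 went the other way. Xinxuan048 had 5.66 FPKM of it without and 2.87 with drought, and KU50 listed it with drought alone, at 0.766.

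Position on the chromosomes was not used by the rule beyond excluding unplaced sequences. Members were found on 17 of 18 chromosomes. Chromosome 1 held the largest number, 8, which is 0.475% of its genes inside the limits. The highest share was on chromosome 7, with 6 members or 0.819%, followed by chromosome 10 with 6 members or 0.745%. Chromosome 12 held none of its 913 genes inside the limits, and chromosome 5 held 1 of 1230. With so few members per chromosome, these shares are counts of single genes and were not tested.

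**Figure D4:**
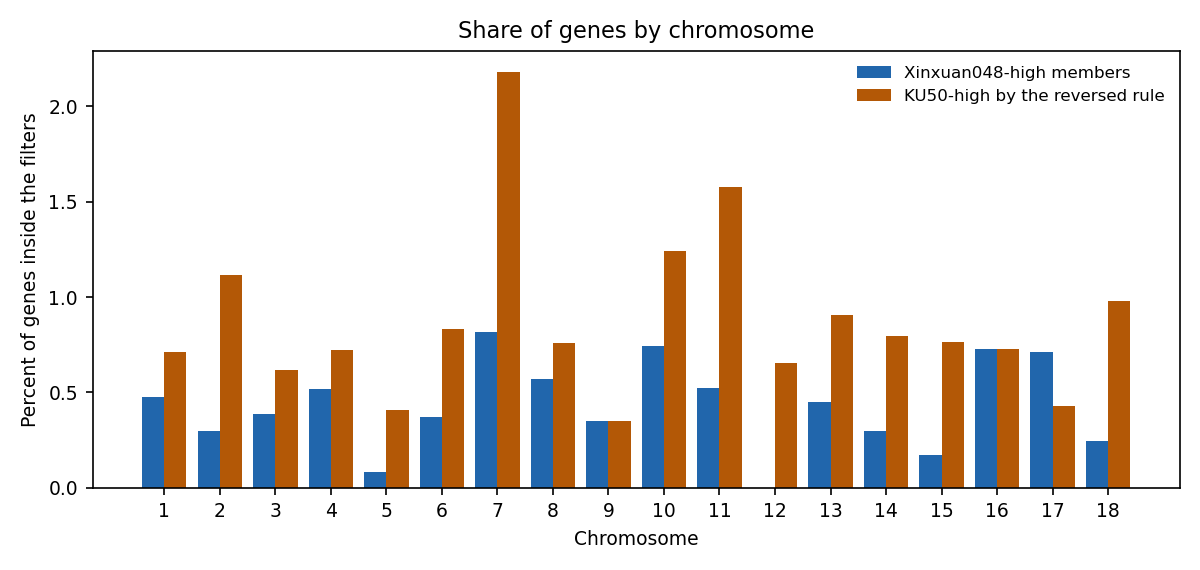
Percent of the genes inside the limits on each chromosome that are members (blue) or belong to the KU50-high genes of the reversed rule (orange). Members peak at 0.819% on chromosome 7, where KU50-high genes reach 2.18%, and chromosome 12 has no member.

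Some members stood side by side. Of the 76, 11 were next to another member when all loci of the files on numbered chromosomes were put in order, in 4 pairs and a run of 3. By the same count, 8 of the 157 KU50-high genes stood next to another, or 5.10%, beside 14.5% of the members. When genes inside the limits alone were put in order, the shares were 7.64% and 14.5%. These shares were not tested. The run of 3 lay on chromosome 16. It began with MANES_16G018200, from 1746215 to 1749338, with 2.24 and 1.26 FPKM for Xinxuan048 against 0.487 and 0.104 for KU50, control first. MANES_16G018300, from 1749556 to 1752687, showed 1.54 and 2.41 FPKM against 0.223 and 0.248. MANES_16G018400, described above, ended the run at 1759146. All 3 were below 1 FPKM in both KU50 libraries and above it in both Xinxuan048 libraries. Levels this low may rest on few fragments, and the depth behind them is unknown.

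The abundant member MANES_08G004100 also had a member beside it. MANES_08G004200, from 382364 to 383966 on chromosome 8, showed 47.5 and 39.9 FPKM for Xinxuan048 against 10.4 and 14.9 for KU50. In both genes of this pair the cultivar ratio was higher in control than in drought. On chromosome 10, MANES_10G022500, from 1758297 to 1761150, showed 35.8 and 49.6 FPKM against 14.8 and 16.2, beside the nearly silent KU50 values of MANES_10G022800. On chromosome 13, MANES_13G155200, from 28045661 to 28046745, showed 29.4 and 35.3 FPKM against 13.2 and 14.3, close to its neighbour MANES_13G154900 in level.

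The fourth pair is not 2 independent observations. MANES_08G075700 and MANES_08G075800 carry the same locus, from 13600968 to 13605811 on chromosome 8. The first showed 35.7 and 35.8 FPKM for Xinxuan048 against 14.3 and 8.73 for KU50. The second showed 6.56 and 6.58 FPKM against 2.16 and 1.23. Both follow one pattern, lower in drought in KU50 and level in Xinxuan048. How the authors' software divided fragments between genes of 1 locus is not given in the sources used here, so both values are uncertain.

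With a distance of at most 100 kb between starts, chosen after the positions were seen, 17 members, or 22.4%, fell into 7 stretches. By the same distance 20 of the 157 KU50-high genes, or 12.7%, lay near another. Neither share was tested. Of the 7 stretches, 1 is the single locus shared by MANES_08G075700 and MANES_08G075800. In the stretches lay 6 non-member genes inside the limits, and 1 of these genes was higher in Xinxuan048 in both conditions. At least 2-fold higher in both were 0 of the 6. The rule allows that for a non-member only where drought moved the gene past the drought limit. In drought alone MANES_13G154800, with a log2 cultivar ratio of 1.34, and MANES_17G118900, with 1.08, were at least 2-fold higher, both named after their values were seen. Of 4 further loci there that miss the limits on level or span, 2 had both Xinxuan048 values above both KU50 values: MANES_08G004400, at 1.65 and 1.12 FPKM against 0.135 and 0.506, and MANES_16G018600, at 0.769 and 1.75 FPKM against 0.260 and 0.228, both named after their values were seen. On chromosome 16 the run of 3 was followed by 2 genes that are no members and then by MANES_16G018700, the fourth member of the stretch, with 3.26 and 5.03 FPKM for Xinxuan048 against 0.848 and 0.942 for KU50. The gene right after the run, MANES_16G018500, named after its values were seen, showed 1.10 and 1.35 FPKM against 1.64 and 0.771, so here the cultivars overlap.

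**Figure D5:**
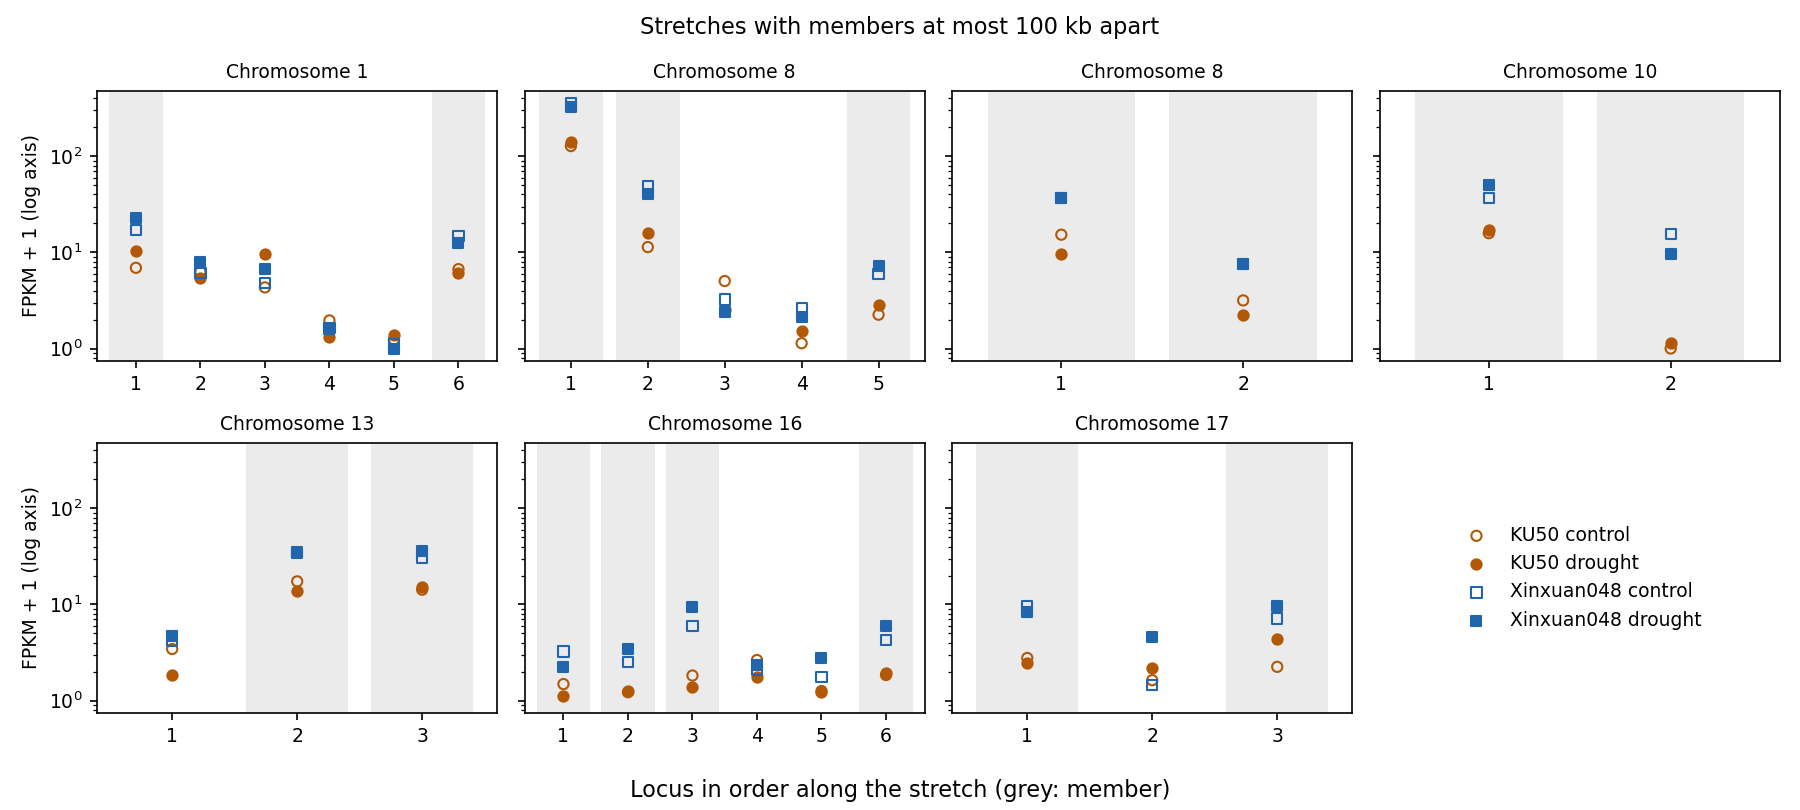
FPKM + 1 on a log axis for every locus, in order, of the 7 stretches in which members lie at most 100 kb apart; members are shaded grey, KU50 values are orange circles and Xinxuan048 values blue squares, with control open and drought filled. In the shaded loci the blue squares lie above the orange circles, as the rule requires, and in most unshaded loci the colours mix.

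Genes flanking the members were described with the members themselves left out, which removes neighbours that share the contrast. The 137 nearest non-member genes inside the limits had median log2 cultivar ratios of -0.05 in control and 0.00 in drought, beside -0.13 and -0.08 for all genes inside the limits. Of these 137 genes, 41 were higher in Xinxuan048 in both conditions, or 29.9%, where all genes inside the limits gave 20.7%. At least 2-fold lower in both were 6 of the 137, beside 260 of all 18602 genes inside the limits. At least 2-fold higher in both was 1 of the 137, beside 129 of the 18602. The share higher in Xinxuan048 in both conditions was 23.8%, 26.7%, 24.5% and 16% for genes 2, 3, 4 and 5 steps away. These shares were not tested. Genes 5 steps away had medians of -0.19 and -0.10.

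The loci of the members were shorter than those of most genes. Their spans had a median of 2042 bases, from 513 to 15763, against a median of 3750 for all genes inside the limits. Loci under 1000 bases made up 14.5% of the members and 6.37% of all genes inside the limits. The longest, that of MANES_13G154900, is shared with another gene. MANES_02G064000 on chromosome 2, with the next longest, showed 2.93 and 3.81 FPKM for Xinxuan048 against 0.137 and 0.498 for KU50. Besides MANES_06G001500, the shortest was that of MANES_17G030200, 540 bases on chromosome 17, with 4.99 and 7.68 FPKM against 1.38 and 2.36. A locus shared with another gene was held by 7 members, 9.21% of them, beside 3.81% of all genes inside the limits. In 5 of these 7 the other gene at the locus was no member. Of those 5 genes, MANES_03G060100 was past 2-fold in control, with a log2 cultivar ratio of 1.504, and MANES_13G154800 in drought, both named after their values were seen.

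The mirror image of the members is the set chosen by the same rule with the cultivars exchanged. It held 157 genes, 0.844% of those inside the limits, against 76 members. Members made up 32.6% of both sets together in the FPKM as deposited, 43.7% with upper-quartile scaling and 48.4% with TMM scaling, where 109 genes were Xinxuan048-high and 116 KU50-high. The split between the sets thus moved with the scaling. The median log2 cultivar ratios of the KU50-high genes were -1.63 in control and -1.39 in drought, and 28 of 157, or 17.8%, were at least 4-fold lower in Xinxuan048 in both conditions, beside 17.1% of members at least 4-fold higher. At least 8-fold was reached by 13 of the 157 and by 2 of the 76. KU50-high genes had a median mean level of 4.63 FPKM and a median span of 2491 bases, so both sets lay below all genes in level and span. None of these differences between the sets was tested.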

How the data were processed

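The authors deposited 1 value in FPKM per gene and library, per the file headers. TopHat2 2.0.12 and Cufflinks stand in the submitters' processing notes without settings; genome build and gene annotation: not given in the sources used here. Positions are those of the files, with the chromosome taken from the tag. One damaged position (1 locus) was taken from another library. Span is end minus start.

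Values were analysed in Python 3.11.15 with pandas 2.3.3 as log2(FPKM + 1), without rescaling. Members were found by the rule stated in the report. With 1 library per group, and a rule that uses every contrast, no test was run and no p-value is given. Shares of all genes inside the limits stand as background. TMM scaling trimmed 30% of the ratios and 5% of the levels at each end over genes listed in all 4 libraries. The code was tested on simulated data. Figures were drawn with matplotlib 3.10.9.

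Named genes are members at either end of each ranking: cultivar ratio, its difference between conditions, level, drought ratio, span and distance from the limit, 2 tags in each direction, plus members next to another member. Genes named outside this rule are marked in the report, except MANES_16G018700, which was also named after its values were seen. Members and lists were chosen with earlier results of these data known. Gene lists and cell type markers, which select by description, were not applied. Alternatives covered scaling, the pseudocount and each limit of the rule.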

Additional observations from a re-analysis of the deposited data

Results flagged for a closer look

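MANES_10G139300, on chromosome 10 from 25075774 to 25076330, drew attention because its drought values ran in opposite directions in the cultivars, by at least 0.5 on the log2 scale in each. It was unlisted in KU50 control and had 0.766 FPKM in KU50 drought, and it had 5.66 FPKM in Xinxuan048 control and 2.87 in Xinxuan048 drought. On the scale of log2(FPKM + 1) the drought ratios, Xinxuan048 minus KU50, differed by -1.60, with the unlisted value taken as 0. This difference was not tested, because a cultivar has 1 library per condition.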

How the results depend on the processing

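The number of members, 76, and of KU50-high genes, 157, followed the limits of the rule. A pseudocount of 5 gave 29 members, 23 of them among the 76 and 4 next to another, and 45 KU50-high genes. A mean of at least 5 FPKM left 43 members, 6 of them next to another, and 75 KU50-high genes. In this order, a log2 cultivar ratio of at least 2 left 13, 0 and 28, with medians of 2.64 in control and 2.64 in drought. A limit of about 1.5-fold gave 255, 21 and 601, with medians of 0.99 and 0.93. Without the limit on the drought ratio there were 129 members and 260 KU50-high genes, and with a limit of 0.5 there were 34 members, 4 of them next to another, and 75 KU50-high genes. Fewer or more genes follow from these limits by construction. With TMM scaling the reselected members had a median drought ratio of -0.12 in Xinxuan048, and the cause was not tested. TMM scaling gave 109 members, 67 of them among the 76, and a pseudocount of 0.1 gave 92, 57 of them among the 76. Medians that moved by less than 0.2 on the log2 scale and counts within 1.5 times the value as deposited were taken as unmoved, which held for 90 of 112 values. The cultivar ratios of the 27 named members, whose sign the rule nearly fixes, stayed at 1 or more in 238 of 270 values under the 3 scalings and both pseudocounts. Nearly all of the values below 1 came with the pseudocount of 5, where the lowest was 0.295. With that pseudocount, more of the named values lay below 1 than at or above it. A pseudocount of 0.1 raised every one of these ratios. Among these 27 members, MANES_10G022800 and MANES_16G066600, both unlisted in KU50 control, then had higher ratios than MANES_09G025600 in both conditions. MANES_06G001500, MANES_10G093300 and MANES_10G139300 did so in control alone, and MANES_11G018200 in drought alone. TMM scaling moved the median cultivar ratio of all genes inside the limits from -0.13 to 0.02 in control and from -0.08 to 0.03 in drought. Members next to another numbered 11 as deposited, 10 of 109 with TMM scaling, 8 of 92 with a pseudocount of 0.1 and 9 of 75 with 1 gene per locus. The comparison with KU50-high genes and the setting with 1 gene per locus, which left 75 members, were added after the data were seen. No paired analysis was possible because each group held 1 library and no test was run, and leaving out a library would leave a contrast without one side. The unknown depth limits what can be said of genes below 1 FPKM.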
